A study of Mus musculus with 4 samples.

Results

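Accessible regions inside large olfactory receptor gene clusters were examined in mouse embryonic stem cells that carry or lack the markers of a state likened to the 2-cell embryo. The members are the 300 union regions, of 50231 in the whole genome, whose midpoint lies in 8 windows of the mm9 genome. A union region is a stretch of DNA in which overlapping ATAC-seq peaks of any of 4 libraries were merged. Members were chosen by their position and by a peak called in at least 1 library, so that every member is present in 1 list or more by construction. The windows lie on chromosome 2 (85.2 to 90.1 Mb), chromosome 7 (109.5 to 112.5 and 113.5 to 115.9 Mb), chromosome 9 (18.8 to 19.9 and 37.6 to 40.1 Mb), chromosome 10 (128.6 to 129.8 Mb), chromosome 16 (58.7 to 59.5 Mb) and chromosome 19 (12 to 13.8 Mb), and span 17.7 Mb in all. Their regions are compared with the 14600 other regions of the same 6 chromosomes.

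All 4 libraries come from the J1 embryonic stem cell line of strain 129SV, kept without feeder cells in serum and leukemia inhibitory factor. In the DR+/+ population, cells were positive for the endogenous retrovirus MERVL and for Zscan4c. In the DR-/- population, cells were negative for both. Each has 2 libraries, and the sources used here do not say whether these were separate cultures or how the cells were separated, so the spread between 2 libraries may be technical. The lists hold 21630 to 40933 peaks, and a typical summit rests on few reads, with a median of 13 to 16 over the peaks in the windows.

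Olfactory receptors are G protein-coupled receptors of the nose, and they form one of the largest gene families of the mouse, arranged in tandem arrays that hold little else. A mature olfactory neuron transcribes 1 receptor allele, and in most other cell types the receptor genes are largely silent. MERVL long terminal repeats and the Zscan4 genes are active in the early embryo and in a small part of embryonic stem cell cultures. No receptor gene is part of the definition of either population.

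The windows could be checked against gene names but not against gene positions, because the gene table used here is of the GRCm38 build while the peaks are on mm9. There, 1110 protein-coding genes carry an olfactory receptor (Olfr) symbol, and 823 of them (74.1%) lie on the 6 chromosomes with windows. Chromosome 2 has 287 such genes and the longest array, with 123 Olfr genes next to each other without another protein-coding gene between them. Chromosome 10 has 68 Olfr genes, chromosome 19 has 63 and chromosome 16 has 36, with longest arrays of 50, 41 and 25. Chromosome 7 carries 239, split so that the longest array holds 42, and chromosome 9 carries 130 with a longest array of 40. Which gene, exon or repeat lies at a given region was not analysed here, and no sequence is shown for the same reason.

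The olfactory windows held many sites that were called in both DR+/+ lists alone and none that was called in both DR-/- lists alone. Of the 300 members, 49 (16.3%, 95% Wilson interval 12.6 to 20.9%) had a peak in each DR+/+ list and none in the DR-/- lists. They are called DR+/+-specific below. Among the other regions of the same chromosomes this class made up 8.40% (1226 of 14600), and over the whole genome 9.08%. The member share was thus 1.95 times that of the other regions (counting interval 1.50 to 2.53), or 49 regions where the share of the others would give 25.2. The reverse class, with a peak in each DR-/- list and none in the DR+/+ lists, had 0 of 300 members, which allows a share of up to 1.00% (3 counts of 300) and has an upper Wilson bound of 1.26%. It made up 1.48% of the other regions and 1.38% of the genome, and at the former share 4.44 members would fall in it. Regions found in all 4 lists, called common, were 54 of the members (18.0%, 14.1 to 22.7%), against 25.9% of the other regions and 24.7% of the genome. These intervals cover counting error only, and because the windows were proposed with earlier results of these data known, the shares are given as a description without a test.

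Regions called in 1 population alone leaned towards DR+/+ cells too. With the 49 above included, a peak in 1 or 2 DR+/+ lists and in no DR-/- list was seen for 165 members (55.0%) and 41.6% of the other regions. Those in a single DR+/+ list were 93 members in replicate 1 (31.0%, others 26.1%) and 23 in replicate 2 (7.67%, others 7.05%). A peak in a single DR-/- list and nowhere else was seen for 13 members in replicate 1 (4.33%), about the share of the other regions (4.26%), and for 9 in replicate 2 (3.00%, others 5.74%). These 22 members (7.33%) were all that were called in DR-/- cells alone, and among the other regions 11.5% were. The remaining 113 members (37.7%) had a peak in at least 1 list of each population, compared with 46.9% of the other regions.

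Library by library, the windows were as well covered as the rest of their chromosomes in DR+/+ cells and less well covered in DR-/- cells. The list of DR+/+ replicate 1 had a peak in 247 members (82.3%) and in 79.2% of the other regions. For DR+/+ replicate 2 the figures were 161 members (53.7%) and 51.5%. Both ratios of these shares came to 1.04. In DR-/- replicate 1 a peak was listed in 94 members (31.3%) but in 42.2% of the other regions, a ratio of 0.743. DR-/- replicate 2 listed 106 members (35.3%) against 48.0%, a ratio of 0.736. The populations did not overlap in this relative presence. The means were 1.04 ± 0.00134 in DR+/+ and 0.739 ± 0.00508 in DR-/- (SD, n = 2 each), with a gap of 0.301. These SDs rest on 2 values each and leave out counting error, so the gap cannot be judged against them. The Wilson interval of the member share was 48.0 to 59.2% in DR+/+ replicate 2 and 26.3 to 36.8% in DR-/- replicate 1. With lists limited to equal length, the DR+/+ ratios lay farther apart, at 1.09 and 1.03, and the DR-/- ratios were 0.811 and 0.797. Without the 2 megabase bins described with the map of the windows, which an earlier scan of these lists had picked out, the ratios were 1.03 and 1.02 for the DR+/+ lists and 0.790 and 0.801 for the DR-/- lists. No test is given, since the windows were proposed with such values known and 165 of the 300 members were in the union through DR+/+ lists alone. A longer list covers more of any set of regions, which is why each share was divided by that of the other regions in the same list.

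**Figure D1:**
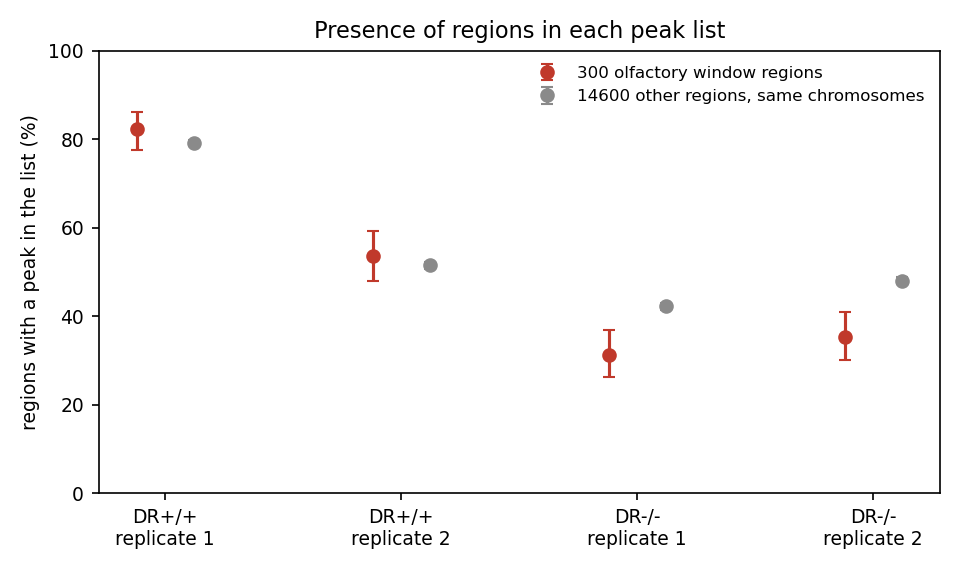
Share of regions with a peak in each of the 4 lists (vertical axis, percent), for the 300 olfactory window regions (red) and the 14600 other regions of the same chromosomes (grey), with 95% Wilson intervals. The red and grey points lie close together in the DR+/+ lists (82.3 against 79.2%, and 53.7 against 51.5%), whereas red lies below grey in the DR-/- lists (31.3 against 42.2%, and 35.3 against 48.0%).

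The same order was seen for peaks counted as a share of their own list. A peak was counted where its union region was a member, so this is not a separate check. The windows took up 254 peaks or 0.621% of the list of DR+/+ replicate 1, and 173 peaks or 0.644% of that of replicate 2. They took up 102 peaks or 0.472% in DR-/- replicate 1, and 122 peaks or 0.499% in DR-/- replicate 2. The DR+/+ values were the higher pair, by 0.147 percentage points on average (0.632 ± 0.0166% against 0.485 ± 0.0196%, SD, n = 2 each). The exact two-sided permutation p was 0.33, the smallest that 2 against 2 libraries allow, and does not allow for the choice of the windows. As the windows were proposed with such values known, this p lends no support, and the order of the lists is a description. The difference was 0.094 percentage points without the window on chromosome 2, and the same without the 2 bins. Per megabase, the windows held 14.4 and 9.77 DR+/+ peaks, and 5.76 and 6.89 DR-/- peaks. The bases under these peaks summed to 63.9 and 38.1 kb, and to 20.1 and 22.8 kb.

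The 8 windows did not all behave alike. The window on chromosome 2 had the most DR+/+-specific regions, 15 of its 62 (24.2%, 15.2 to 36.2%), against 8.53% on the rest of that chromosome. The upper window on chromosome 9 had 9 of 41 (22.0%, 12 to 36.7%) and the lower one 3 of 16 (18.8%, 6.59 to 43.0%), where the remainder of chromosome 9 had 8.37%. On chromosome 10 the class made up 6 of 26 regions (23.1%, 11 to 42.1%), and on chromosome 19 it made up 6 of 35 (17.1%, 8.10 to 32.7%), beside 8.77% and 6.66% elsewhere on these chromosomes. The windows on chromosome 7 were near their chromosome's 7.89%, with 6 of 56 (10.7%, 5.0 to 21.5%) in the lower and 4 of 51 (7.84%, 3.09 to 18.5%) in the upper. The small window on chromosome 16 had 0 of 13, which allows up to 22.8% (upper Wilson bound), with 9.62% on the rest of the chromosome. Thus 6 of the 8 windows were above their chromosome, and the intervals of 4 of them did not reach down to it.

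**Figure D2:**
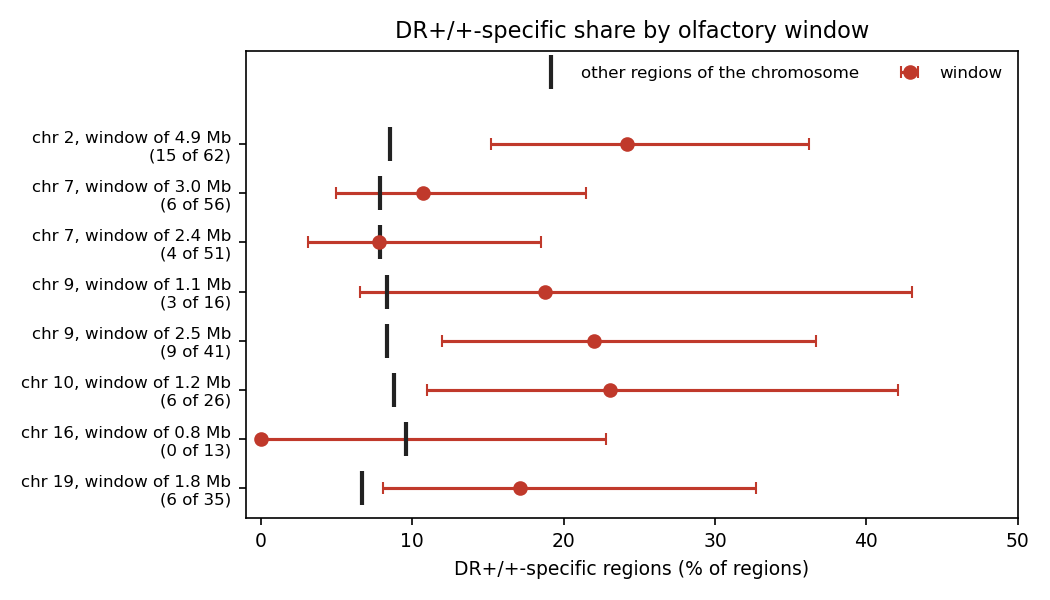
Percent of the regions of each window that were DR+/+-specific (red points, with 95% Wilson intervals), with the counts beside the window's chromosome and length. Black bars give the share among the other regions of that chromosome, 6.66 to 9.62%, and the points range from 0 in the window on chromosome 16 to 24.2% in that on chromosome 2.

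The shortfall in DR-/- cells had the same direction in every window, unlike the excess of DR+/+-specific regions, but its size differed widely. Relative to the rest of its own chromosome, every one of the 8 windows had a lower presence in both DR-/- lists, with ratios of 0.286 to 0.964 for the first and 0.448 to 0.968 for the second. The ratios of the DR+/+ lists spanned 0.923 to 1.11 and 0.718 to 1.21, with 2 and 3 windows below 1. The window on chromosome 2 fell to 0.578 and 0.448 in DR-/- replicates 1 and 2, where 15 and 13 of its 62 regions had a peak. It stood at 1.11 and 0.892 in the DR+/+ lists, with 55 and 29 regions. The upper window of chromosome 7 stood at 0.964 and 0.968 in DR-/- cells and 1.01 and 1.21 in DR+/+ cells. It also held 14 common regions, the most of any window. In plain counts, which also carry the length of the lists, both DR+/+ lists covered more regions than both DR-/- lists in 7 of the 8 windows, the exception being chromosome 16 with 10 and 5 regions in DR+/+ cells and 5 and 5 in DR-/- cells. By the ratios, DR+/+ replicate 2 on chromosome 16 (0.718) was below both DR-/- lists (0.938 and 0.826). On chromosome 10 it stood at 0.910, below DR-/- replicate 2 at 0.924.

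DR+/+-specific members lay in groups along the windows. The megabase at 87 to 88 Mb of chromosome 2 held 7 among 16 regions and no common region, and that at 39 to 40 Mb of chromosome 9 held 6 among 11, again with no common region. These 2 bins had stood out in an earlier scan of the same lists, before the windows were drawn. Without them 36 of 273 members (13.2%) remained DR+/+-specific, 1.57 times the share of the other regions. At the upper end of the chromosome 2 window, 4 of the 5 regions beyond 90 Mb were of this class, and 3 of them followed each other without another region between, from 90012790 to 90076766. On chromosome 10, 4 followed each other over 41.1 kb, from 129441248 to 129482388, the longest such run in the windows. These stretches were picked after their values were seen.

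The median distance of a DR+/+-specific member to the nearest other region of its class was 60.8 kb (interquartile range 9.30 to 290 kb), compared with 184 kb (73.9 to 383 kb) for such regions elsewhere on the 6 chromosomes. Within 10 kb of another lay 13 of the 49 (26.5%) and 93 of 1226 (7.59%). Of the 7 neighbouring pairs in the windows that were this close, 4 were less than 1 kb apart, such as chr9:39203613-39203768 and chr9:39203838-39204106, so that a pair may stand for a single element. With peaks up to 500 bp apart merged, 44 of 262 members (16.8%) were DR+/+-specific, and the ratio to other regions was 1.88. From common regions these members were farther away, at a median of 199 kb (63.5 to 364 kb) compared with 70.2 kb (22.3 to 168 kb). Common regions were also rarer in the windows, as given above. These distances include the bins that had stood out in the earlier scan and were not computed without them. DR+/+-specific regions were also denser per megabase in the windows than elsewhere, which by itself shortens the distance between them.

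Pooled over the windows, the share of DR+/+-specific regions just outside was close to that farther out. Of the 232 regions within 0.5 Mb outside a window, 7.76% (4.96 to 11.9%) were DR+/+-specific. The share was 8.82% at 0.5 to 1 Mb, 7.10% at 1 to 2 Mb, 7.91% at 2 to 5 Mb and 8.46% farther out. The first 0.5 Mb outside also had near-average presence in the DR-/- lists, 40.9% and 44.8% in replicates 1 and 2. At the 16 bounds themselves, the nearest region inside was DR+/+-specific in 2 cases and common in 3, and the nearest region outside in 2 and 6 cases. Those inside had a peak in 12 and 9 cases in DR+/+ replicates 1 and 2 and in 5 and 6 cases in the DR-/- lists, and those outside in 16, 9, 6 and 8 cases.

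**Figure D3:**
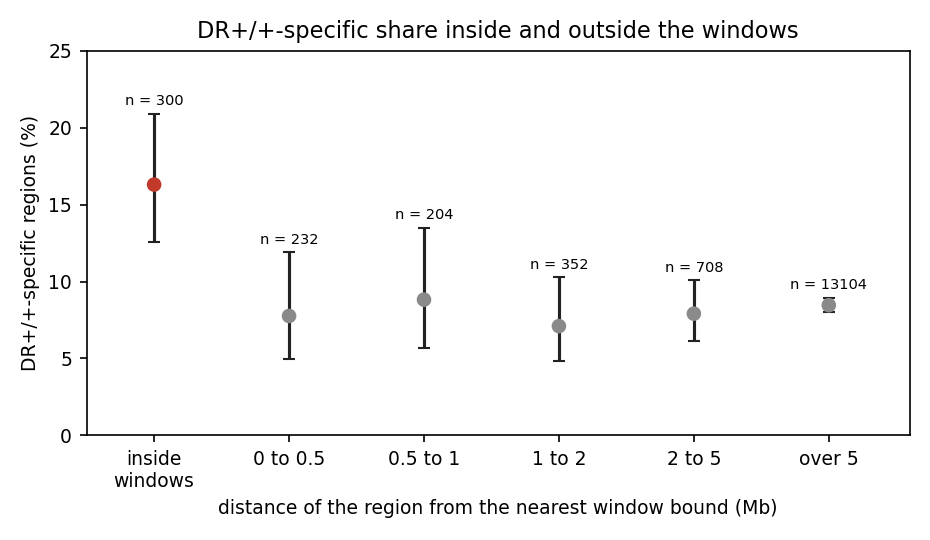
Percent of regions that were DR+/+-specific inside the windows (red) and at growing distance from the nearest window bound (grey, in megabases), with 95% Wilson intervals and the number of regions. The share is 16.3% inside and between 7.10 and 8.82% in every class outside.

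Regions in the windows were somewhat sparser than elsewhere, 16.9 against 20.5 per megabase. The less dense bins of the chromosomes, called sparse here, leaned the same way as the windows to a lesser degree. The other regions in megabase bins that held no more regions than the densest window per megabase (21.7) numbered 5852, and 10.6% of them were DR+/+-specific, compared with 6.94% in denser bins. Their presence in the DR-/- lists, 36.6% and 41.7%, lay between the 31.3% and 35.3% of the members and the 45.9% and 52.2% of the denser bins. In DR+/+ cells it was 79.1% and 50.6%, close to 79.3% and 52.1% in the denser bins. Against this background the member share of DR+/+-specific regions was 1.54 times as high. The limit of 21.7 lies above the 20.5 regions per megabase found elsewhere, so bins of about average density were included. Density was thus not matched to that of the windows.

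Peak strength was compared next. Peaks in the windows ranked lower than those elsewhere in 3 of the 4 lists by a clear margin. The measure was a peak's percentile within its own list by -log10 q. DR+/+ replicate 2 gave a median of 43.4 in the windows and 50.0 elsewhere on the chromosomes. The medians were 43.8 and 49.6 for DR-/- replicate 1, and 36.3 and 51.1 for DR-/- replicate 2. DR+/+ replicate 1 differed least, with 49.1 and 51.2. In the top 10% of their list ranked 7.51 to 9.84% of the window peaks, depending on the list, and 10.2 to 10.8% of other peaks.

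Within each quartile of strength in the DR+/+ lists, a larger share of members than of other regions was missing from the DR-/- lists. The quartiles do not fully match strength, since 8.27% of window peaks and 10.8% of other peaks were in the top 10% of DR+/+ replicate 1. Of the 61 members in the strongest quartile of DR+/+ replicate 1, 15 (24.6%, 15.5 to 36.7%) had no peak in either DR-/- list, compared with 185 of 3048 other regions (6.07%, 5.28 to 6.97%). In the second strongest quartile the shares were 31 of 60 (51.7%) and 36.0%. In the 2 weaker quartiles they were 69.1 and 84.5% for members and 60.4 and 75.8% for others. In DR+/+ replicate 2 the strongest quartile lost 5 of 35 members (14.3%, 6.26 to 29.4%) and 4.12% of the other regions, and the next lost 17 of 38 (44.7%) and 20.3%. The weakest quartile of that list was close for both, at 63.0 and 59.0%. Sparse bins fell between, with 9.09% (7.50 to 11%) and 5.54% (4.08 to 7.48%) missing in the strongest quartiles of replicates 1 and 2.

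Between the 2 libraries of the DR+/+ population the gap was smaller in the strongest quartile and turned in the next. Of the strongest quartile of DR+/+ replicate 1, replicate 2 recovered 54 of 61 members (88.5%) and 93.2% of the other regions, and for the next quartile 66.7% and 60.7%. Between the DR-/- libraries the recovery of members went both ways relative to other regions. Of the weakest quartile of DR-/- replicate 1, replicate 2 had 12 of 30 members and 48.4% of the others. For the second weakest quartile of DR-/- replicate 1 the shares were 63.6% of members and 68.8% of the others. Of the second weakest quartile of DR-/- replicate 2, replicate 1 had 37.9% and 54.0%, and of the strongest 22 of 25 members and 95.5%. The order was the reverse in the second strongest quartile of DR-/- replicate 2, at 91.7% of members and 74.4% of others. It was also the reverse in the second strongest and strongest quartiles of DR-/- replicate 1 (85.0 and 84.0%, 100 and 97.4%). The weakest quartile of DR-/- replicate 2 gave 35.7% for both. Strong DR-/- peaks were nearly all found in DR+/+ cells, in the windows and elsewhere alike. For DR-/- replicate 1, all 22 members in the strongest quartile had a peak in each DR+/+ list, as had 98.1 and 95.9% of the other regions. For DR-/- replicate 2, 24 and 22 of 25 members did, and 98.0 and 94.4% of the others.

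**Figure D4:**
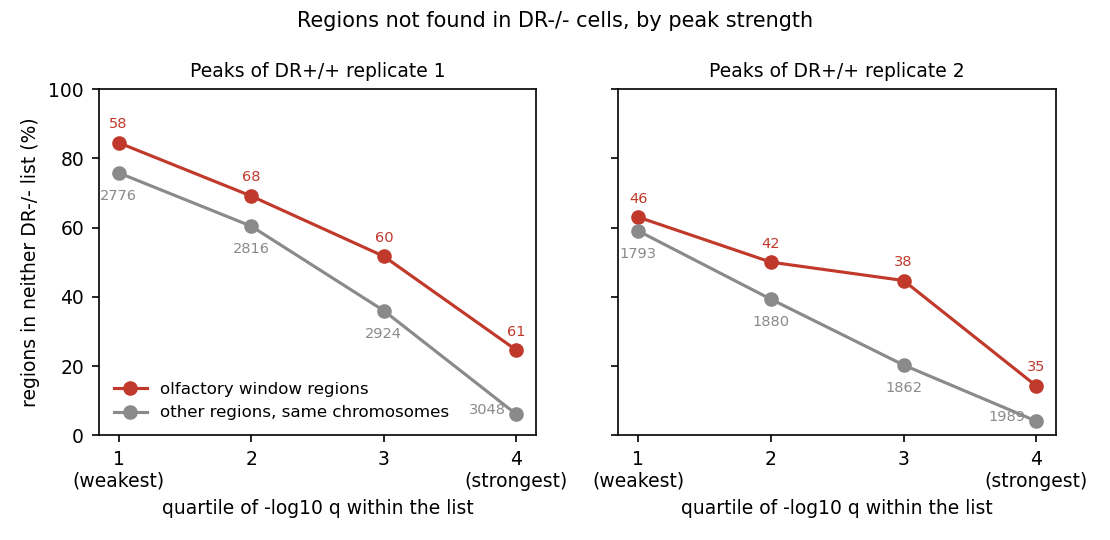
Percent of regions with no peak in either DR-/- list (vertical axis), by quartile of -log10 q within the lists of DR+/+ replicate 1 (left) and replicate 2 (right), for olfactory window regions (red) and other regions of the same chromosomes (grey), with the number of regions at each point. Red lies above grey in every quartile of both panels, from 84.5 against 75.8% down to 24.6 against 6.07% in replicate 1, and by the least in the weakest quartile of replicate 2 (63.0 against 59.0%).

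DR+/+-specific members were moderate sites, stronger and wider than DR+/+-specific regions elsewhere. In DR+/+ replicate 1 they had a median summit pileup of 17 reads (interquartile range 14 to 20), a 5.13-fold enrichment over local background and a percentile of 58.2, where such regions elsewhere had 15 reads (13 to 17), 4.81-fold and 45.4. In DR+/+ replicate 2 the medians were 14 reads (13 to 17), 4.63-fold and percentile 37.5, against 13 reads, 4.52-fold and 32.7. The fold enrichments are the authors' own values per peak. The median width of these members' peaks was 238 bp in replicate 1 and 182 bp in replicate 2, compared with 184 and 160 bp elsewhere, and the merged regions measured 298 bp, compared with 225 bp. Their summits in the 2 DR+/+ lists were 56 bp apart in the median, and 23 of 49 (46.9%) lay within 50 bp of each other, where such regions elsewhere had 41 bp and 56.9%. Above the 75th percentile were 13 of the 49 in replicate 1, 5 in replicate 2 and 4 in both. Of the 1226 such regions elsewhere, 131 in replicate 1 and 72 in replicate 2 were above it.

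The strongest DR+/+-specific member was chr19:13234464-13234701, with 23 reads at the summit and 8.30-fold enrichment in DR+/+ replicate 1, and 20 reads and 7.52-fold in replicate 2. It ranked at percentiles 90.9 and 87.9 of these lists and has no value in the DR-/- lists, where no peak passed the authors' threshold. Its nearest neighbour on the lower side was chr19:13194593-13195221, a region of 629 bp with 22 and 23 reads (5.76-fold and 5.98-fold), and farther down the chromosome lay chr19:12860561-12860797 with 20 and 18 reads (7.13-fold and 5.99-fold). All 3 were in the top quartile of both DR+/+ lists.

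Second in rank was chr10:128947718-128947976, with 26 reads and 6.18-fold enrichment in replicate 1 and 24 reads and 6.65-fold in replicate 2. The window on chromosome 10 also held chr10:129482089-129482388, which closes the run of 4 neighbouring regions and had 20 and 15 reads (6.86-fold and 5.77-fold). On chromosome 9 the leading region, chr9:18964287-18964956, was the widest of the DR+/+-specific regions named here at 670 bp. It had 26 reads and 7.97-fold enrichment in replicate 1 and 18 reads and 5.90-fold in replicate 2, so that its percentile dropped from 92.1 to 74.3. In the upper window of that chromosome the leading region was chr9:39203838-39204106, with 17 and 19 reads (5.06-fold and 5.88-fold).

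On chromosome 2, chr2:88926443-88926747 led with 20 and 18 reads (6.45-fold and 5.88-fold). It was followed by chr2:87321402-87321658 with 22 and 21 reads (5.64-fold and 5.31-fold), the first of the 7 in the megabase named above. The leading regions on chromosome 7 were weaker in replicate 2. They were chr7:111009540-111009690 with 18 and 12 reads, and chr7:115849403-115849709 with 19 and 13 reads. Their percentiles were 72.5 and 79.5 in replicate 1 but only 34.7 and 31.8 in replicate 2.

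The 54 common members allow the signal to be compared at the same sites in all 4 lists. The 5 strongest of them had 22 to 45 reads at the summit in every list. First was chr19:12039701-12040328, next to the lower bound of its window, with 40 and 42 reads in DR+/+ replicates 1 and 2 and 27 and 40 in the DR-/- lists. It was followed by chr16:58727716-58728456, with 45, 31, 25 and 28 reads in that order. On chromosome 7, chr7:114352733-114353006 had 38, 31, 34 and 39 reads, and chr7:114380419-114380786 had 33, 28, 33 and 32 reads. The fifth, chr9:19426311-19426836, had 43, 35, 22 and 32 reads. Only in the regions on chromosomes 16 and 9 did both DR+/+ lists exceed both DR-/- lists in reads, and these pileups are not corrected for depth.

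At common sites the pileup in the windows, relative to common sites elsewhere on the same chromosomes, was slightly higher in DR+/+ than in DR-/- cells. The ratio of median pileups was 1.04 (24 against 23 reads) in DR+/+ replicate 1 and 1.11 (21 against 19) in replicate 2. For the DR-/- lists it was 1.00 (18 against 18) and 0.900 (18 against 20). The means of these ratios were 1.07 ± 0.0437 and 0.950 ± 0.0707 (SD, n = 2 each), a difference of 0.124 (exact two-sided permutation p = 0.33, the smallest possible). It rests on medians 0 to 2 reads apart, and was 0.078 without DR+/+ replicate 2. With means in place of medians it was 0.076, and all 4 ratios were below 1, at 0.961 and 0.933 in DR+/+ and 0.880 and 0.862 in DR-/- cells. Fold enrichment at the same sites showed no such order, with ratios of 0.979 and 1.01 in DR+/+ and 1.02 and 0.983 in DR-/- (exact permutation p = 0.67).

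The local background under these sites, recovered from the deposited values, moved with the pileup. At common sites the ratio of its median in the windows to that elsewhere was 1.08 and 1.02 for the DR+/+ lists, against 0.932 and 0.896 for the DR-/- lists (exact two-sided permutation p = 0.33). Over all peaks the ratio was 1.03 and 0.986 in DR+/+ cells (medians of 2.42 and 2.37 reads in the windows), and 0.910 and 0.912 in DR-/- cells (1.94 and 2.19 reads). By medians, both DR+/+ libraries thus had a relatively higher background at the peaks of the windows than both DR-/- libraries. With means at common sites the ratios were 0.838 and 0.773 in DR+/+ and 0.708 and 0.729 in DR-/- cells. By means the background in the windows was therefore lower than elsewhere in every list. As the background was solved from pileup and fold enrichment, it is not a separate observation from the pileup ratio. How reads that map to several places were treated is not given, and near-identical receptor genes and repeats lie in these arrays. The part of that treatment in these values was not tested.

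With lists limited to equal length, the 21630 strongest peaks of each, the windows kept their lean towards DR+/+ cells. Of the 201 members left, 30 (14.9%) were DR+/+-specific, compared with 4.62% of the other regions, a ratio of 3.23, and 6 (2.99%) were DR-/--specific, compared with 4.41%. The relative presence of members was then 1.09 and 1.03 for the DR+/+ lists and 0.811 and 0.797 for the DR-/- lists.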

How the data were processed

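ATAC-seq peaks of 4 libraries were used, with groups taken from the sample titles. The submitters' processing notes name mm9, Bowtie2 2.3.0, SAMtools 0.1.19 and FastQC 0.10.1. For the peak caller, the Tn5 shift and the handling of duplicate or ambiguously mapped reads, the entry is the same: not given in the sources used here. Each deposited list gives, per peak and for its own library alone, a score (10 times the −log10 q-value, truncated to a whole number, in 99.95 to 100.0% of the peaks of a list), a −log10 q-value of at least 1.31, the −log10 p-value and a fold enrichment (ratio). These are the authors' values and served to rank and describe peaks.

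Peaks sharing 1 bp or more were merged into regions. Summit pileup and local background were solved from fold enrichment, taken as (pileup + 1)/(background + 1), and the Poisson p-value, with a tolerance of 0.001 on its −log10, which every peak met. Depth is not stated in the lists. Python 3.11.15, pandas 2.3.3, NumPy 2.4.6, SciPy 1.17.1 and Matplotlib 3.10.9 were used, and the code was tested on simulated data. Shares carry Wilson intervals at 95%. Values per library were compared by exact permutation.

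Windows, members and comparisons were chosen with earlier results of these data known. Named are the 8 DR+/+-specific members with the highest mean percentile over the DR+/+ lists, the first of each window, and the 5 strongest common members. The flank and sparse-bin shares, strength classes, spacing, background pileup and relative presence were chosen after seeing the data, except that sparse bins as a background were planned.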

Additional observations from a re-analysis of the deposited data

How the results depend on the processing

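The ratio of the DR+/+-specific share in the windows to that of other regions stayed above 1 in all 23 alternatives, from 1.26 to 3.23. It was 3.23 with lists of equal length, 1.26 and 1.49 with the replicate 1 or the replicate 2 libraries alone, and 1.38 to 1.70 with 1 library left out. It was 1.84 against all autosomes and 1.71 to 2.15 with 1 window left out (1.71 without that on chromosome 2). Against the 2 Mb flanks, a setting chosen after seeing the data, it was 2.11. The share itself was 10.5% with 50% reciprocal overlap (other regions 6.58%). With the replicate 1 or 2 libraries alone it was 64.7% and 43.4% (others 51.5% and 29.1%). With 1 library left out it was 20.1 to 51.6% (others 11.9 to 37.4%). In these settings with fewer libraries the class needs fewer lists by construction. Without DR+/+ replicate 2 the share reached 51.6% (others 37.4%). The DR-/--specific share of members was 2.99% with lists of equal length (others 4.41%). It was 5.58% and 16.1% with replicates 1 or 2 alone (others 8.34% and 23.3%). With 1 library left out it was 0.353 to 4.91% (others 2.42 to 7.59%). Common members were 9.95% with reciprocal overlap, 29.7% and 40.5% with replicates 1 or 2 alone, and 21.4 to 25.4% with 1 library left out. The common share of the other regions was not computed for these settings, and with fewer libraries this class also needs fewer lists. These common shares therefore do not show whether the windows differed from other regions.

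The share of a list's peaks in the windows was higher in DR+/+ cells in all 17 alternatives, by 0.094 to 0.189 percentage points, the lowest without the chromosome 2 window or, chosen after seeing the data, without the 2 megabase bins named above. The pileup ratio at common sites was higher in DR+/+ cells in all 19, by 0.073 to 0.198. No p could fall below 0.33 with 2 against 2 libraries. With the replicate number as a block, the differences were 0.147 and 0.124 (exact sign-flip p = 0.50, the smallest possible), but nothing in the labels ties libraries of the same number to each other. Few reads per summit and 300 regions limit all shares.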
